A study of Rattus norvegicus with 9 samples.

Results

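Complement genes expressed in the rat knee joint were followed across 3 groups of a knee osteoarthritis (KOA) experiment by RNA sequencing of total RNA from tissue labelled as cartilage. The set was chosen by name and had 9 members, namely C1s, C1r, C2, C3, Cfb, Cfd, Serping1, C3ar1 and C5ar1. Of these, 7 had an entry in the expression table, which listed 32043 entries in all. No entry carried the name C2 or C5ar1, and their own levels were not analysed here. The control group (NOR in the library names) comprised rats whose left knee capsule was opened and sutured, the model group (MOD) comprised rats with the modified Hulth operation, and the SYD group (CXTB) comprised operated rats that then received Shengyu decoction (SYD), a traditional Chinese medicine made from botanical drugs. All rats were male Sprague-Dawley animals 8 weeks old at purchase. The modified Hulth operation removes the medial collateral and anterior cruciate ligaments and the medial meniscus, so that the joint becomes unstable, and it was followed by forced activity of 30 min per day for 4 weeks. SYD was given by gavage for 4 weeks, at the high dose of the study. Model and SYD rats therefore shared the operation, and the experiment held no group that received SYD without it.

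Each group had 3 libraries. The sources did not state whether each library came from a separate rat, so p-values here measure the spread between these libraries. Recovered read totals ranged from 14914121 to 19510537 per library. The share of reads on mitochondrial genes was 4.05% to 4.86% in control libraries, 39.5% to 90.7% in model libraries and 23.7% to 72.7% in SYD libraries. Reads outside mitochondrial genes fell to 1744769 in model replicate 1, to 3611325 in model replicate 3 and to 5153851 in SYD replicate 3, which were therefore the least precise libraries. This share moved with the groups, and its part in the results could not be told apart from theirs. Markers of cartilage were uneven, since Col2a1, the main collagen of cartilage, ranged from 348 to 8323 FPKM in control, from 39.0 to 606 in model and from 42.4 to 609 in SYD libraries. Haemoglobin, granulocyte and B cell transcripts were also present in the libraries.

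Complement is a cascade of blood and tissue proteins that marks surfaces for removal and recruits inflammatory cells. In the classical pathway, C1q binds a target and activates the proteases C1r and C1s, which cleave C4 and C2, and the serpin encoded by Serping1 (C1 inhibitor) blocks both proteases. In the alternative pathway, factor B (Cfb) is bound by C3b and cut by factor D (Cfd), which gives the convertase that cleaves more C3. The fragments C3a and C5a signal through the receptors C3ar1 and C5ar1. Complement fragments and their regulators are well known in osteoarthritic synovial fluid and cartilage, and synovial fibroblasts, chondrocytes and macrophages can make several of the components themselves.

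The regulatory sequences of C3 and C1r were compared first, because these genes moved in opposite directions in SYD against control libraries on the deposited scale. With TPM, which scales each library to the same total, both were below control, at -4.59 (C3) and -0.20 (C1r) in log2. RefSeq promoters (build GRCr8) were matched for 4 members, C3, C1r, Cfd and C3ar1. The 250 bases before the start of C3 (chr9:2201340-2201589, minus strand) and of C1r (chr4:159098763-159099012, plus strand) are given 5′ to 3′ in the direction of the gene. Capitals mark the letters that matched a motif.
C3: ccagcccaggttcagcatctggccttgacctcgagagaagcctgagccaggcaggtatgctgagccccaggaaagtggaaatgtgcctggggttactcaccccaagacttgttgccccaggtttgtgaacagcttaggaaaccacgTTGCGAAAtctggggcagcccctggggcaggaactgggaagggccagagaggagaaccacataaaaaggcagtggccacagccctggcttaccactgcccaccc
C1r: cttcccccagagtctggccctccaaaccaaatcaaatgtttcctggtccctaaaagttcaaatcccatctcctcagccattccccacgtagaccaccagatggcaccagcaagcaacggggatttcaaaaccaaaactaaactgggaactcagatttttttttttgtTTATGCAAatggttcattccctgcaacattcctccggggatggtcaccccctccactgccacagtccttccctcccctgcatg
The search covered 4 motifs on both strands, a STAT element (TTCNNNGAA), a C/EBP core (TTGCNNAA), a TATA box (TATAAA) and the kappa B element. C3 held 1 match to the C/EBP core, TTGCGAAA, 104 bases before its start. C1r also held 1, TTATGCAA on the opposite strand, 83 bases before its start. The core was found in 9.20% of the 27457 RefSeq promoters of this length, the STAT element in 7.52%, the TATA box in 13.1% and the kappa B element in 6.41%. No letters of these 4 motifs were matched in the windows of Cfd or C3ar1. The matches describe the letters only, and C3 and C1r, opposite in change on the deposited scale, both carried the same one.

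Expression was given in FPKM, reads scaled for gene length and library size, so levels of different genes can be set side by side. In control libraries the order by mean FPKM was Cfd, Serping1, C3, C1r, Cfb, C1s and C3ar1. The ranges of Serping1 and C3 overlapped, as did those of C1r and Cfb, and the other neighbours in the order were separate. In the model and SYD groups C3 stood in the sixth place instead, behind C1s. Its range met that of C1s in the model group and lay wholly below it in the SYD group.

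**Figure D1:**
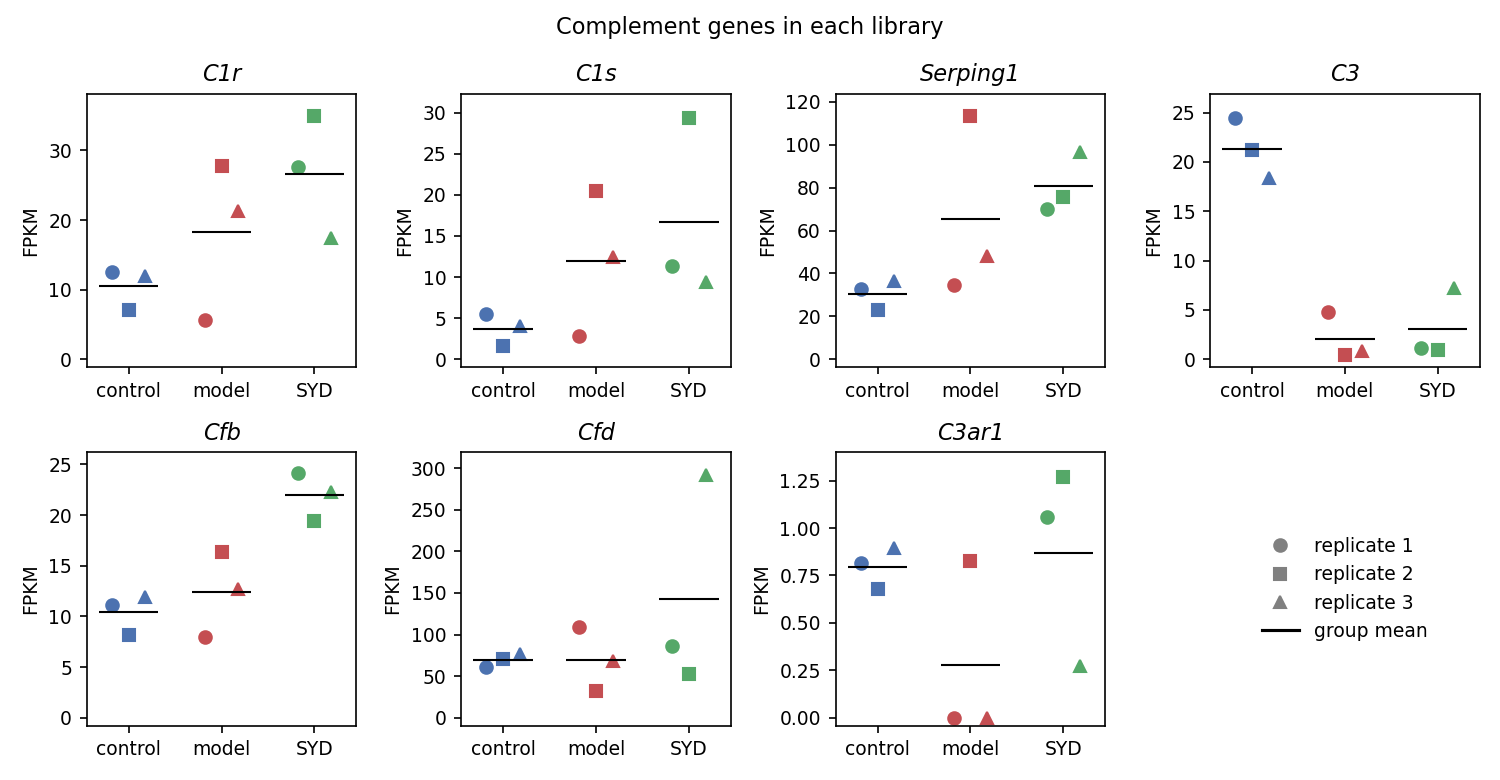
FPKM (vertical axis, linear) of the 7 complement genes in each library of the control, model and SYD groups (horizontal axis); symbols are replicates and lines group means. C3 lay between 18.3 and 24.5 FPKM in control libraries and at 7.18 or less in all others, and Cfd stood at 291 FPKM in SYD replicate 3.

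C3 encodes the central component on which all activation pathways converge. Its entry spans chromosome 9 from 2087437 to 2114429 in the table's own coordinates, whose build was not given in the sources used here. C3 was at 24.5, 21.2 and 18.3 FPKM in control replicates 1, 2 and 3. In the model libraries it was at 4.78, 0.455 and 0.804 FPKM. In the SYD libraries it was at 1.16, 0.968 and 7.18 FPKM. Every control library lay above every model and SYD library, and model replicate 1 and SYD replicate 3 were the highest of their groups. The reads behind these values numbered 3785 to 4086 per control library, against 91, 63 and 28 for model replicates 1 to 3 and 162, 144 and 433 for SYD replicates 1 to 3. The mean fell from 21.3 ± 3.06 FPKM (SD, n = 3) in control to 2.01 ± 2.40 in model, which is 10.6-fold lower, or 33.9-fold lower without model replicate 1. Tissue was sequenced in bulk, where fewer cells of a type and less RNA per cell cannot be told apart. In limma on log2(FPKM + 1), a scale that understates changes of low values, C3 fell by 3.16 (SE 0.56) in model against control, with a Benjamini-Hochberg adjusted p of 0.0476. SYD libraries had a mean of 3.10 ± 3.53 FPKM, 6.87-fold below control (20.0-fold without SYD replicate 3), and C3 fell by 2.76 (SE 0.57, limma adjusted p = 0.0284) in that comparison. Against the model group, C3 in the SYD group differed by only 0.40 (SE 0.81, limma adjusted p = 0.873), and the libraries overlapped. The exact permutation test gave p = 0.1 for each comparison with control, the smallest value that 3 against 3 libraries allow.

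C1r and C1s, the proteases of the C1 complex, lie side by side on chromosome 4, from 157412692 to 157423484 and from 157430117 to 157442303 in the table's coordinates. C1r was at 12.5, 7.12 and 11.9 FPKM in control, at 5.66, 27.8 and 21.3 in model, and at 27.6, 34.9 and 17.5 in SYD replicates 1 to 3. C1s was at 5.46, 1.63 and 4.09 FPKM in control, at 2.77, 20.5 and 12.5 in model, and at 11.3, 29.4 and 9.43 in SYD. For both genes every SYD library lay above every control library, whereas model replicate 1 lay within or below the control range and the other model libraries above it. That library held 57 reads of C1r and 33 of C1s, against at least 726 and 197 in any control library. The fitted log2 difference of model against control was 0.53 (SE 0.59) for C1r and 1.22 (SE 0.72) for C1s, and neither passed the test (limma adjusted p = 0.662 and 0.42). In SYD against control, C1r rose by 1.25 (SE 0.32, limma adjusted p = 0.0489), but with TPM its difference was -0.20 and the call was lost. C1s rose by 1.83 (SE 0.52), meeting the criteria of the study (unadjusted p below 0.05 and more than 1 in size on the log2 scale) with a limma adjusted p of 0.0639. With TPM this difference was 0.58 (adjusted p = 0.617) and the call was lost. An unnamed entry with a C1s-like description on the same chromosome stood at 1.5 FPKM or less in every library, with the highest value in SYD replicate 3, and how reads shared between the entries were assigned is not given in the sources used here.

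Serping1 encodes the inhibitor of these proteases. It was at 32.6, 22.8 and 36.4 FPKM in control, at 34.4, 113 and 48.1 in model, and at 69.9, 75.7 and 96.7 in SYD replicates 1 to 3. All SYD libraries lay above all control libraries, and model replicate 2 exceeded every SYD library. Means were 30.6 ± 7.01 FPKM in control, 65.3 ± 42.3 in model and 80.7 ± 14.1 in SYD (SD, n = 3). Serping1 rose by 1.38 (SE 0.22, limma adjusted p = 0.0169) in SYD against control, but with TPM its difference was -0.14 and the call was lost. The difference was 0.91 (SE 0.47, limma adjusted p = 0.361) in model against control and 0.47 (SE 0.46, limma adjusted p = 0.752) in SYD against model, and neither passed the test. When model replicate 1 was left out, C1r, C1s and Serping1 met the study's criteria in model against control, with log2 differences of 1.17, 1.94 and 1.27. They also met them with limma-voom on recovered reads, at 1.11, 2.29 and 1.09 (adjusted p = 0.188, 0.0889 and 0.187). Without model replicate 2 the differences were only 0.12, 0.69 and 0.42, and with TPM they turned to -2.32, -1.28 and -2.20. These TPM values lay above that of the median entry, -2.60.

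Cfb encodes factor B, the protease that forms the alternative convertase. The table's Cfb entry, on chromosome 20 from 3951474 to 3976505, spans 25032 bases, carries a protein match to C2 in its description, and occupies the place where RefSeq sets C2 and Cfb next to each other. It may therefore hold reads of both genes. Its values were 11.2, 8.20 and 11.9 FPKM in control, 7.99, 16.4 and 12.7 in model, and 24.2, 19.4 and 22.3 in SYD replicates 1 to 3. The SYD libraries lay above all libraries of both other groups, which overlapped each other. Group means were 10.4 ± 1.98, 12.4 ± 4.21 and 21.9 ± 2.42 FPKM (SD, n = 3). Cfb rose by 1.01 (SE 0.18, limma adjusted p = 0.0195) in SYD against control, at the edge of the fold threshold. The difference was 0.86 without control replicate 2 and 0.94 without SYD replicate 1, so that the call was lost, and -0.45 with TPM. In SYD against model the difference was 0.83 (SE 0.33), under the fold threshold, with an unadjusted limma p of 0.0421 and an adjusted p of 0.723. The exact permutation test gave p = 0.1 for both comparisons.

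Cfd encodes factor D, also called adipsin because adipocytes secrete it in quantity. By group mean it was the most abundant member, although Serping1 exceeded it in model replicate 2 and SYD replicate 2, and by mean without model replicate 1 (80.8 against 50.2 FPKM) or without SYD replicate 3 (72.8 against 69.0 FPKM). Cfd was at 60.8, 70.9 and 77.1 FPKM in control, at 109, 32.4 and 68.1 in model, and at 85.8, 52.2 and 291 in SYD replicates 1 to 3. The SYD mean of 143 ± 129 FPKM (SD, n = 3) rested on replicate 3, and the groups overlapped in all comparisons. Cfd did not pass the test in any of them, with a log2 difference of -0.15 (SE 0.45) in model against control, 0.81 (SE 0.73) in SYD against model and 0.65 (SE 0.62) in SYD against control (limma adjusted p = 0.88, 0.737 and 0.492). Without SYD replicate 3 the last difference was -0.048. With TPM, Cfd met the study's criteria in model against control, at -3.32 (limma adjusted p = 0.0133), and in SYD against model, at 2.44 (limma adjusted p = 0.522). On that scale 75.2% and 3.81% of all entries were called in these comparisons, with medians of -2.60 and 1.22. The summed FPKM of 11 adipocyte markers was 29.2 to 52.1 in control, 45.3 to 96.8 in model and 51.1 to 189 in SYD libraries, highest in SYD replicate 3 as well. Adipoq, which encodes adiponectin and was chosen here after its values were seen, was at 58.2 FPKM in that library and at 8.14 or less in the other 8. Fabp4, the most abundant marker of the list, was at 61.3 FPKM there but also at 62.0 in model replicate 3, where Cfd was at 68.1. The part of fat tissue in the Cfd values was not tested.

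C3ar1, the receptor of C3a, had the lowest mean of each group, although C3 lay below it in model replicate 2 and SYD replicate 2. It was at 0.816, 0.678 and 0.893 FPKM in control and at 1.06, 1.27 and 0.271 in SYD replicates 1 to 3. In the model group it was at 0.826 FPKM in replicate 2 and without a read in replicates 1 and 3. At the depth of those libraries, 0 reads allowed up to 0.184 and 0.1 FPKM, the value of 3 reads. The control and SYD ranges overlapped, and 2 of 3 model libraries lay below all others. The fitted log2 difference was -0.55 (SE 0.29) in model against control, 0.57 (SE 0.38) in SYD against model and 0.01 (SE 0.24) in SYD against control, and none passed the test (limma adjusted p = 0.364, 0.723 and 0.979). Differences of so low a gene depend on the scale. In model against control it was -2.09 with a pseudocount of 0.1, -1.84 with TPM (limma adjusted p = 0.0209) and -3.66 with limma-voom (adjusted p = 0.137), and the criteria of the study were met with the last pair. In SYD against model it was 3.55 with limma-voom (adjusted p = 0.641). TPM called 75.2% of all entries in model against control, with a median of -2.60, and C3ar1 lay 0.76 above that median.

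**Figure D2:**
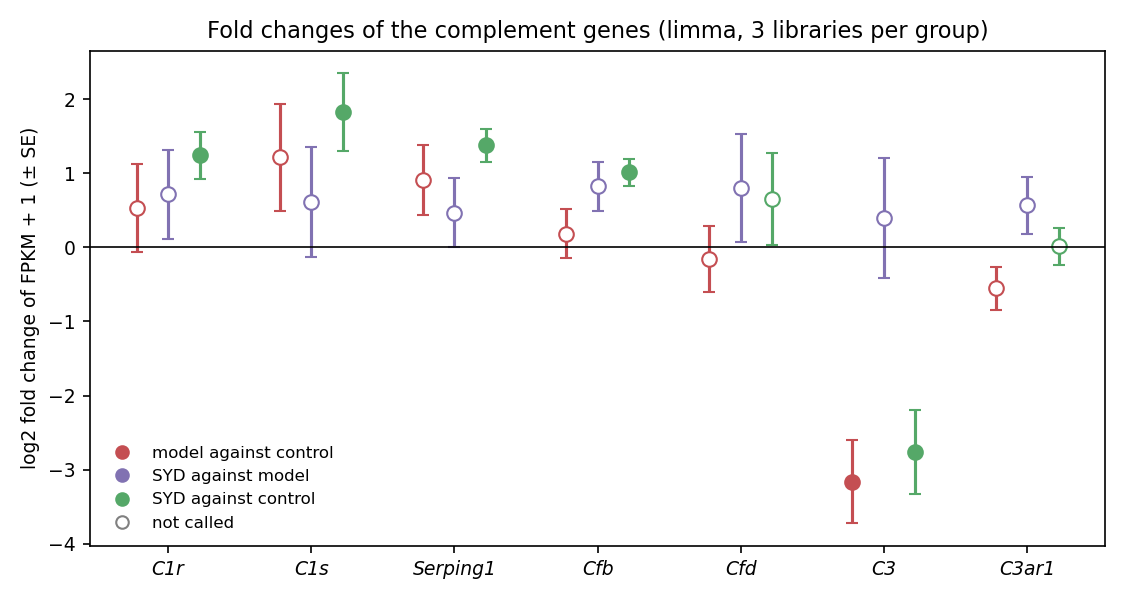
Log2 fold change of FPKM + 1 (vertical axis, ± SE, limma) of the 7 complement genes in the 3 comparisons; filled points met the study's criteria. C3 was lower than control in both comparisons with it, and C1r, C1s, Serping1 and Cfb were higher in SYD than in control, although with TPM, which scales each library to the same total, C1r, Serping1 and Cfb turned to -0.20, -0.14 and -0.45 in that comparison.

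The counts of members were then read against all 13898 entries with a mean of at least 0.5 FPKM, a filter that all 7 members passed. In model against control, 1 of 7 members (C3) was called lower and none higher. Over all entries 11.2% were called lower and 3.55% higher, and 2.59% had an adjusted p under 0.05, as did C3. The median log2 difference was 0.19 over the members and -0.23 over all entries. In SYD against model no member was called, while 3.62% of all entries were called higher and 0.532% lower. By limma 1 member, Cfb, had an unadjusted p under 0.05, and 0% of entries had an adjusted p under 0.05. All 7 fitted differences were positive, with a median of 0.61 against 0.22 over all entries. In SYD against control, 4 of 7 members were called higher and 1 lower, beside 7.25% and 9.22% of all entries, and 4 had an adjusted p under 0.05, beside 17.3%. The last number was 0 with all 9 libraries in 1 fit, with a replicate block, and without control replicate 1 or 3. In those runs 253, 0, 758 and 209 of 13898 entries had an adjusted p under 0.05. Over the other runs it was between 1 and 5 members. The members' median in that comparison was 1.01, and that of all entries 0.00. Libraries did not overlap for 1 of 7 members in model against control, 1 in SYD against model and 5 in SYD against control, where the shares over all entries were 28.7%, 11.1% and 42.5%. No test was made of how these shares differ from those over all entries. The 3 comparisons share libraries pairwise and are not independent of one another.

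Scaling affected these directions. With TPM, which scales each library to the same total over all genes, mitochondrial ones included, the median of all entries moved to -2.60 in model against control, 1.22 in SYD against model and -1.31 in SYD against control. On that scale C1r, Serping1 and Cfb were below control in SYD libraries, at -0.20, -0.14 and -0.45, yet stayed above the median entry by 1.11, 1.18 and 0.87. C3 lay below the median entry by a log2 difference of -2.94 in the deposited scale and -3.39 in TPM in model against control, and by -2.76 and -3.28 in SYD against control.

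Ratios between members within a library do not depend on how libraries were scaled. C3 relative to the sum of the other 6 members was 0.198, 0.190 and 0.129 in control, 0.0300, 0.00215 and 0.00494 in model, and 0.00530, 0.00455 and 0.0164 in SYD replicates 1 to 3. All control libraries lay above all others, and the log2 ratio differed by -4.63 in model and -4.53 in SYD from control (exact permutation p = 0.1 for both, the smallest possible). This ratio was added after the values were seen. Leaving out single libraries moved the differences between -5.70 and -3.80 in model and between -5.11 and -4.18 in SYD against control. C1s relative to C1r was 0.435, 0.229 and 0.343 in control, 0.489, 0.737 and 0.585 in model, and 0.409, 0.843 and 0.540 in SYD. Model libraries lay above control libraries without overlap, with a log2 difference of 0.87 (exact permutation p = 0.1), while SYD overlapped control (0.81, exact permutation p = 0.2). Serping1 relative to the sum of C1r and C1s was 1.81, 2.61 and 2.28 in control, 4.08, 2.35 and 1.42 in model, and 1.80, 1.18 and 3.60 in SYD. These ranges overlapped in all 3 comparisons, with log2 differences between -0.28 and 0.12 and exact permutation p of 0.7 to 0.9.

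**Figure D3:**
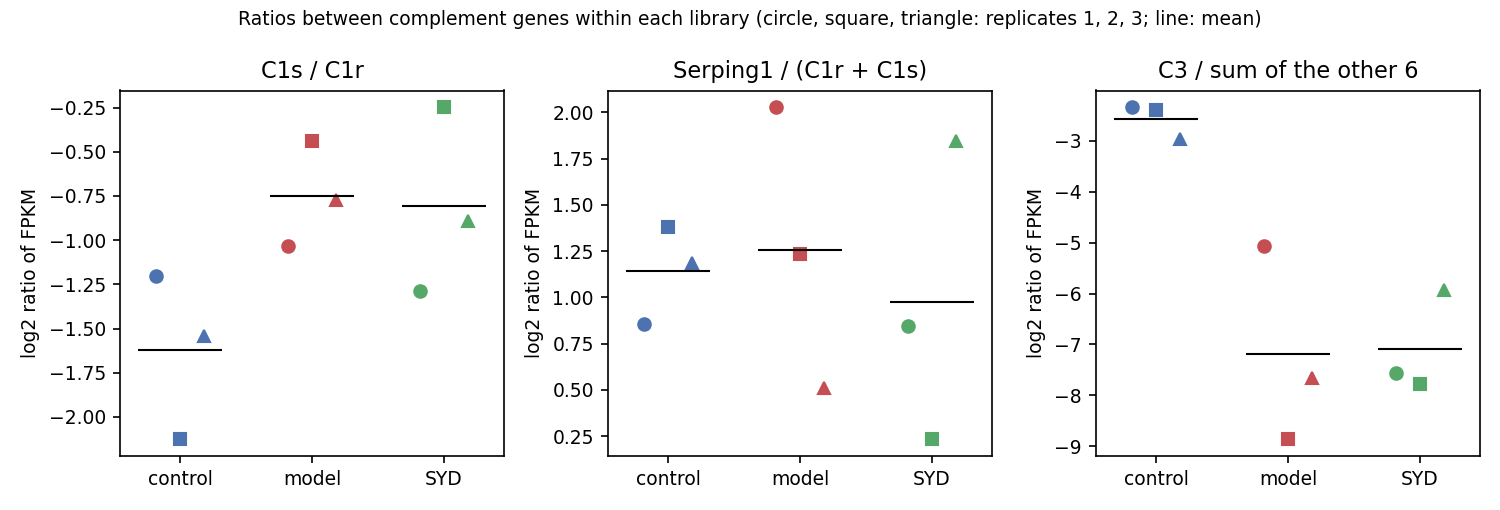
Log2 ratio of FPKM within each library (vertical axes) for C1s to C1r, Serping1 to C1r plus C1s, and C3 to the sum of the other 6 members, by group (horizontal axes); symbols are replicates and lines group means. The third ratio was -2.96 or higher in every control library and -5.06 or lower in every other library.

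The rest of the pathway was taken from a list of 47 further complement genes, of which 42 had an entry and 24 passed the filter. In model against control 6 of 24 were called, all lower, where 11.2% of all entries were called lower and 3.55% higher. These were Fcnb (ficolin B, a lectin pathway recognition protein, -4.40), C1rl (a C1r-like protease, -1.82), Itgam and Itgb2 (the chains of complement receptor 3, -1.78 and -1.43), C5ar2 (the second C5a receptor, -1.68) and C6 (a component of the membrane attack complex, -1.07). Only Itgam had an adjusted p under 0.05 (limma, 0.0418). The C5ar2 entry spans 29135 bases where RefSeq sets C5ar1 beside C5ar2, so it may hold reads of C5ar1. It was at 7.68, 11.1 and 7.99 FPKM in control, at 2.71, 3.65 and 0.676 in model, and at 4.47, 3.05 and 2.94 in SYD replicates 1 to 3, with all control libraries above all others. In SYD against model none of the 24 was called, and by limma none had an unadjusted p under 0.05, whereas limma-voom on recovered reads called 3. In SYD against control 8 were called, 2 higher and 6 lower, beside 7.25% and 9.22% of all entries, and 7 of the 24 had an adjusted p under 0.05. The 2 higher genes, C7 and Cd93, differed by 1.68 and 1.70 (limma adjusted p = 0.102 and 0.0139). C7 was at 70.4, 27.8 and 15.7 FPKM in SYD replicates 1 to 3 and at 44.2 in model replicate 2. The lower genes were Fcnb (-4.41), Fcna (-1.93), Itgb2 and Itgam (-1.74 each), Cfp (-1.19) and C5ar2 (-1.15). The median log2 difference of the 24 was -0.20, 0.37 and 0.14 in the 3 comparisons.

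Abundant genes among these by mean FPKM were Fcnb (66.0), C1qb (38.9), Clu (35.3) and C1qa (26.7). Fcnb was at 175, 199 and 161 FPKM in control, at 25.1, 0.940 and 10.8 in model, and at 5.67, 7.31 and 9.67 in SYD replicates 1 to 3, so that every control library lay far above the rest, as for C3. C1qa and C1qb encode chains of C1q, and Clu (clusterin) encodes an inhibitor of the membrane attack complex. C1qb, Clu and C1qa differed by 0.72, 0.93 and 0.21 in SYD against control (limma adjusted p = 0.137, 0.179 and 0.255). C4b and C4a, near-identical copies between which reads may be split, differed by 2.15 and 0.54 in that comparison (limma adjusted p = 0.16 and 0.605), and C4b met the criteria there with a pseudocount of 0.1, with TPM over non-mitochondrial genes and with quantile normalization. C8a, C8b, C9, Cpn1 and Cpn2 were listed at 0 in all 9 libraries, so not every component of the membrane attack complex was detected at this depth. C5 did not exceed 0.0514 FPKM outside SYD replicate 3, where it was at 1.19.

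**Figure D4:**
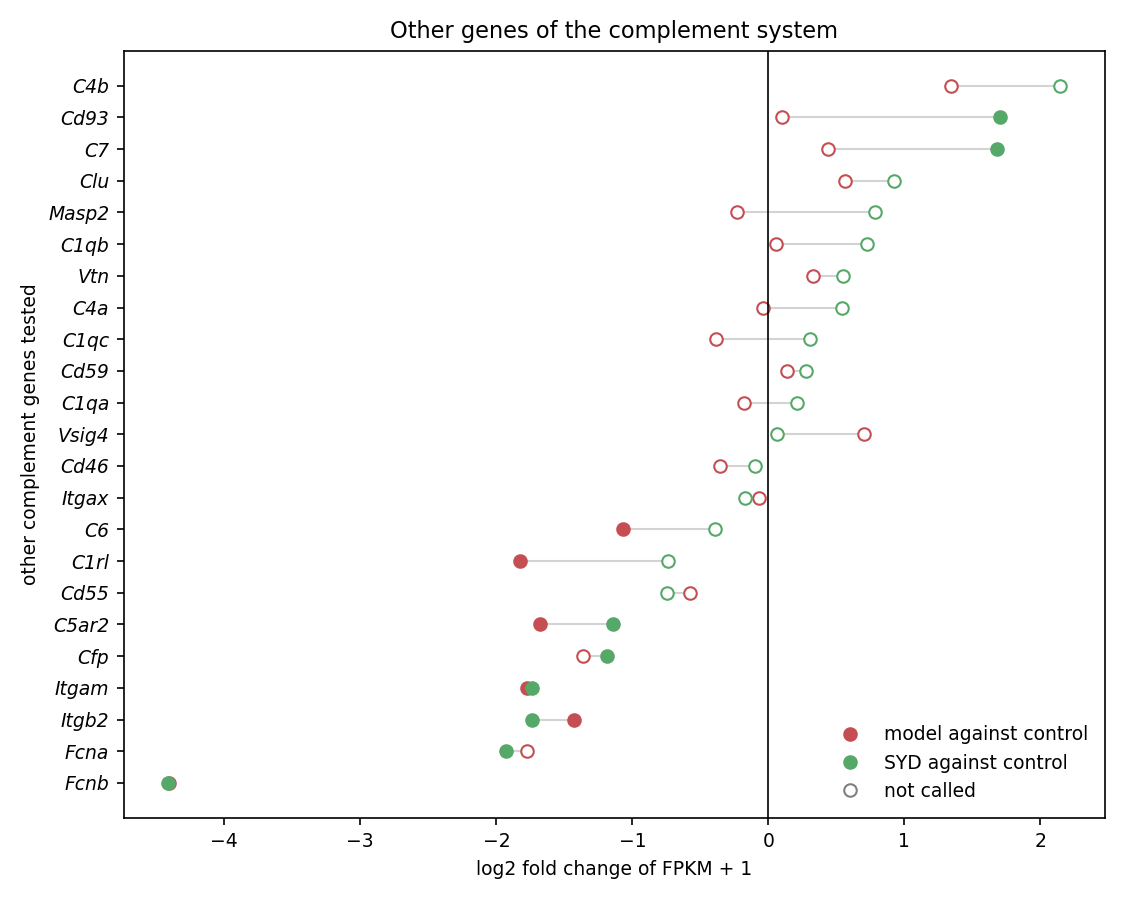
Log2 fold change of FPKM + 1 (horizontal axis) of other complement genes tested, in model against control and SYD against control, which share the control libraries; filled points met the study's criteria. Fcnb lay at -4.40 and -4.41, and C7 and Cd93 at 1.68 and 1.70 in SYD against control (limma adjusted p = 0.102 and 0.0139).

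Markers of several other cells differed between the groups as well. Over all entries 11.2% were called lower and 3.55% higher in model against control, and 9.22% and 7.25% in SYD against control. No test set the marker counts against these shares. Of 8 B cell markers, 5 were called lower in model and 6 in SYD against control, and their summed FPKM was 249 to 318 in control, 15.6 to 58.9 in model and 16.1 to 47.2 in SYD libraries. Cd79a, a chain of the B cell receptor complex, was at 155, 197 and 172 FPKM in control, at 31.4, 1.29 and 23.8 in model, and at 1.06, 10.7 and 21.1 in SYD replicates 1 to 3. Of 12 neutrophil markers tested, 7 were called lower in model and 9 in SYD against control, and their summed FPKM was 3458 to 6144, 215 to 8071 and 953 to 3634 in the 3 groups. Within the model and SYD groups, model replicate 1 and SYD replicate 3 were the highest for C3 and for both marker lists. The genes whose profile over the 9 libraries was most like that of C3 were Klhl6, S1pr4 (a sphingosine-1-phosphate receptor) and Srgn (serglycin, a granule proteoglycan of blood cells), with root-mean-square differences of 0.170, 0.194 and 0.207 on scaled log2(FPKM + 1). For Cfd they were Ccdc28a, LOC103691088 and Wdr70, at 0.418, 0.433 and 0.436. Of 9 erythroid markers, 1 was called lower in model and 6 in SYD against control, with sums of 6574 to 16338, 296 to 42469 and 1313 to 13587 FPKM in the 3 groups. Their sum was highest in model replicate 3 and SYD replicate 3, so the erythroid order within the model group differed from that of C3. The part of marrow or blood cells in the C3 values was not tested.

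Synovial fibroblast markers were examined beside C1r, C1s and Serping1. The shares over all entries were again 11.2% lower and 3.55% higher in model, and 9.22% and 7.25% in SYD against control. A count of 1 marker called lower in lists of this size is near those shares. Of 11 such markers, 6 were called higher and 1 lower in SYD against control, and none higher and 1 lower in model against control. Their summed FPKM was 114 to 346 in control, 195 to 1398 in model and 527 to 2098 in SYD libraries. Model replicate 2 and SYD replicate 2 were the highest of their groups for the marker sum, for C1r and for C1s. Serping1 was likewise highest in model replicate 2, but in the SYD group it was highest in replicate 3, where the marker sum was lowest. The most abundant marker, Col3a1 (a fibrillar collagen), differed by 3.47 (limma adjusted p = 0.133) in SYD against control and met the study's criteria. Dcn (decorin) and Lum (lumican), small matrix proteoglycans, rose by 1.96 and 2.37 in that comparison (limma adjusted p = 0.0183 and 0.0243). Prg4 (lubricin, made by the synovial lining), chosen after its values were seen, differed by 0.77 (limma adjusted p = 0.574). Of 8 endothelial markers 2 were called higher in model and 5 in SYD against control. Of 9 osteoblast markers, 1 was called lower in model and 3 higher in SYD against control, and of 9 adipocyte markers tested 3 were called higher in SYD and none in model against control. None of 8 skeletal muscle markers was called in either comparison. Of 13 macrophage markers tested, which include C1qa, C1qb and C1qc, none was called in model and 3 were called higher in SYD against control, with sums of 150 to 190, 114 to 253 and 162 to 343 FPKM in the 3 groups. In SYD against model 3 of these 13 and 2 of 12 neutrophil markers were called higher, where 3.62% of all entries were. Of 14 chondrocyte markers, 8 were called lower in model and 1 in SYD against control, and their sums overlapped at 452 to 11148, 159 to 920 and 107 to 2509 FPKM. Of 10 hepatocyte markers, looked at because liver is the main source of circulating complement, 2 passed the filter. Tf (transferrin) was at 25.5 to 207 FPKM and was called lower in model and SYD against control. Apoa1 (apolipoprotein A1) was at 5.97 FPKM or less and was called higher in SYD against control and against model. Fgb (a fibrinogen chain) was listed at 0 in every library. The part of fibroblasts or of any of these other cells in the values of C1r, C1s and Serping1 was not tested.

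**Figure D5:**
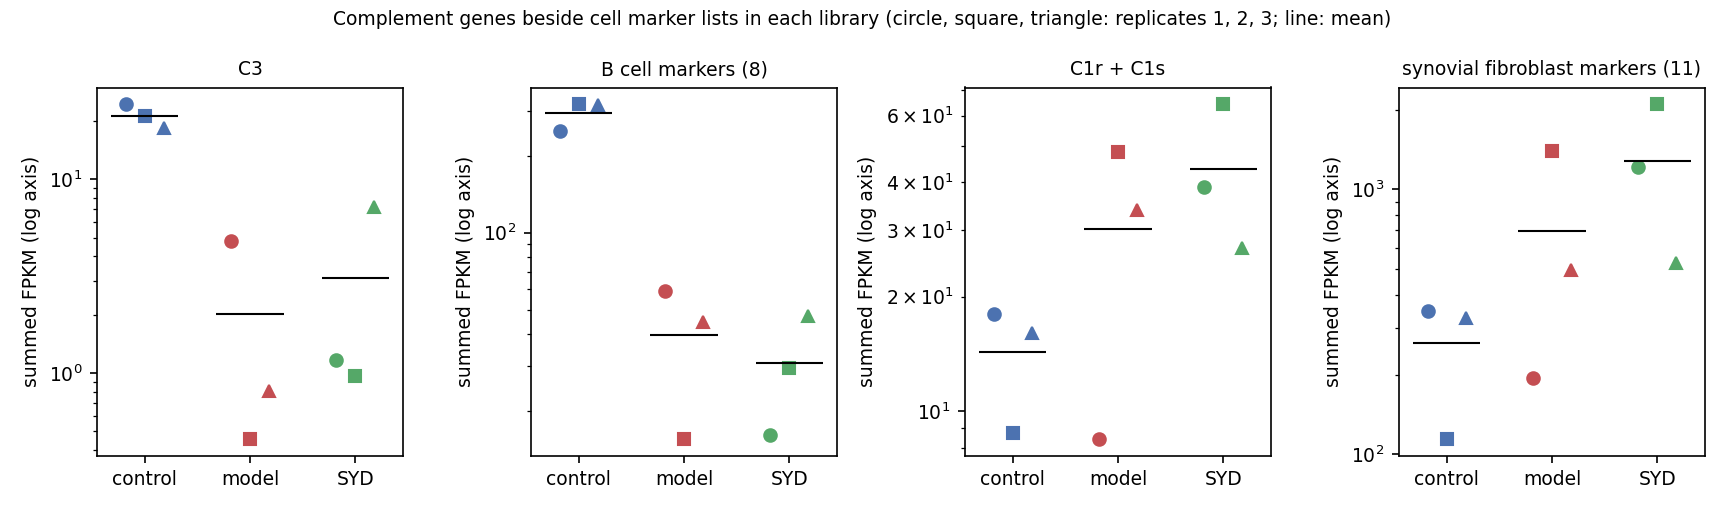
FPKM of C3, summed FPKM of 8 B cell markers, summed FPKM of C1r and C1s, and summed FPKM of 11 synovial fibroblast markers (vertical axes, log scale) in each library by group (horizontal axes); symbols are replicates and lines group means. C3 and the B cell sum were highest in the 3 control libraries, and the protease and fibroblast sums were highest in SYD replicate 2.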

How the data were processed

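Total RNA from 9 rat tissue samples labelled cartilage (3 control, 3 model, 3 SYD at 522 mg/kg) was sequenced by the authors. The deposited values are FPKM, gene reads divided by gene length and an effective library size. That size was 0.193 to 2.18 times the recovered reads of a library, and how it was set was not tested. The submitters' processing notes name HISAT2 2.0.5 and the human build hg38, and the extraction text names retina. The gene identifiers are those of rat, and the build of the gene positions is not given in the sources used here. Of 8 photoreceptor markers none passed the filter and 3 (Prph2, Nrl and Crx) were listed at 0 throughout. Their summed FPKM was at most 0.974 in control, 0 in model and 3.50 in SYD libraries, and the highest single value was 2.12 (Gnat1, SYD replicate 3). FPKM multiplied by length and library size gave whole reads for all values within 0.1 read, and these reads were used for depth.

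Each pair of groups was fitted separately on log2(FPKM + 1) with limma 3.58.1 (R 4.3.3, eBayes with trend, two-sided) over 13898 entries with a mean of at least 0.5 FPKM over the 9 libraries, with Benjamini-Hochberg adjustment over all of them. A gene was called when its unadjusted p was below 0.05 and its log2 fold change exceeded 1 in size, the criteria of the study. Single values and ratios were compared by the exact two-sided permutation test, which cannot go below p = 0.1 with 3 against 3 libraries. The fits were also run on simulated data with the same spread for all genes and groups. These libraries differ more than that, so the simulation does not bear on the calls made here. Floors of 3 reads cover counting error only.

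Members and gene lists were chosen with earlier results of these data known. The text names all members, every other complement gene called in model against control or SYD against model, the 5 with the highest mean FPKM (1 of them is not reported here), the leading genes of marker lists, and the 3 genes most like C3 and Cfd. Genes outside this rule (C7, Cd93, Fcna, Cfp, C4a, C4b, C1qc, C5, those listed at 0, Adipoq, Prg4 and Gnat1) were named after their values were seen. Promoter sequences came from RefSeq (GRCr8), and RefSeq gene order was used for neighbouring genes only. Replicate numbers did not pair the samples, since same-numbered libraries did not deviate together. Alternatives were another pseudocount, other filters, TPM, quantile normalization, a joint fit, a replicate block, limma-voom on recovered reads and leaving out each library.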

Additional observations from a re-analysis of the deposited data

How the results depend on the processing

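C3 met the study's criteria, lower than control, in the model and SYD groups under every alternative run, with log2 differences of -5.99 to -3.02 and -4.59 to -2.76 and, leaving out single libraries, -3.78 to -2.78 and -3.43 to -2.40. Its adjusted p in model against control ranged from 0.00318 to 0.254 over the other alternatives. Without control replicate 1, 2 or 3, or without model replicate 3, C3 had no adjusted p under 0.05 in that comparison. At most 1 of all entries had one in those runs. The number of members called, 1, 0 and 5 in model against control, SYD against model and SYD against control, became 4, 1 and 1 with TPM, which called 75.2%, 3.81% and 43.4% of all entries. It was 5 (C1r, C1s, Serping1, C3 and C3ar1) with limma-voom in model against control, where 23.6% of all entries were called, and 1 with TPM over non-mitochondrial genes in SYD against model, where 4.14% were. Leaving out single libraries gave 1 to 4, 0 to 1 and 4 to 5. The 4 arose without model replicate 1 (19.5% of all entries called), and the 1 (Cfb) without model replicate 2 (18% of them). Other complement genes called numbered 18 of 24 with TPM in model against control (75.2% of all entries), 1 with TPM and 3 with limma-voom in SYD against model (3.81% and 7.76% of all entries), and 4 with all 9 libraries in 1 fit in SYD against control (12.9%), against 6, 0 and 8 (14.7%, 4.15% and 16.5% of all entries). Leaving out single libraries gave 2 to 8, 0 to 4 and 6 to 9, with 2 without control replicate 2 (9.42% of all entries) and 4 without model replicate 1 (3.04%).

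Signs turned as follows. With TPM, C1r, C1s, Serping1 and Cfb were at -2.32, -1.28, -2.20 and -2.70 in model against control, and C1r, Serping1, Cfb, Cfd and C3ar1 at -0.20, -0.14, -0.45, -0.89 and -0.88 in SYD against control. With non-mitochondrial TPM, Cfb was at -0.026 in model and C3ar1 at -0.074 in SYD against control, and the median of all entries was -0.64, 0.57 and -0.05 in the 3 comparisons. C3ar1 was at -0.089 with a pseudocount of 0.1 in SYD against control and at 0.023 with quantile normalization in model against control. Leaving out libraries, C3ar1 ranged from -0.15 to 0.27 and Cfd from -0.048 to 1.18 in SYD against control, Cfb from -0.028 to 0.45 and Cfd from -0.55 to 0.31 in model against control, and C1s from -0.11 to 1.14 and C3 from -0.26 to 1.01 in SYD against model. Cfb missed the fold threshold in SYD against control without control replicate 2 (0.86) or SYD replicate 1 (0.94). The cause of these turns was not tested.

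A replicate block left 1, 0 and 5 members called (12%, 3.78% and 16.3% of all entries), with no adjusted p under 0.05. Same-numbered libraries correlated at -0.27 to 0.19 in their deviations from the group means, and the numbers were not treated as a pairing. The ratio of Cfb to C2 could not be computed. Depth limits several model values, since C3 rests on at most 91 reads and C3ar1 on at most 98 in any model library, and C1r and C1s on 57 and 33 in model replicate 1.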
